A study of Mus musculus with 16 samples.

Results

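Immediate early genes are transcribed within minutes of a growth factor, cytokine or stress signal, from factors that are already in the cell and without new protein synthesis. ERK signalling acts on many of them through serum response factor and its ELK partners, and calcium and cyclic AMP act through CREB at cyclic AMP response elements (CREs). Most of their products are themselves transcription factors: the orphan nuclear receptors Nr4a1 (Nur77), Nr4a2 (Nurr1) and Nr4a3 (Nor-1), the zinc finger factors Egr1 and Egr2, the AP-1 subunits Fos, Fosb, Jun and Junb, and the stress-induced factor Atf3. In fibroblasts NR4A1 is known as a brake on TGF-beta signalling and EGR1 as a promoter of matrix gene transcription. These 10 genes were chosen by symbol, and each symbol matched 1 of the 54331 Ensembl genes listed.

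The libraries are RNA sequencing of mouse lung fibroblasts on the C57BL/6 background, harvested 72 h after infection with an adenovirus. ST2 is the IL-33 receptor, encoded by Il1rl1, and each genotype (ST2 KO or wild type, WT) gave 1 library with AdV-MIL33, the virus for mature IL-33 (M), 1 with AdV-FLIL33, for full-length IL-33 (FL), and 2 with the non-coding AdV-NULL (NULL). No uninfected culture is among the groups, so all 8 libraries share the infection, and the labels do not say whether the NULL libraries were separate cultures or animals. The values are normalized counts per gene, with totals of 2.39e+07 to 2.92e+07 per library. The labels assign a second table, equal to the first but for 2 of 434648 values that differ by rounding, to unseparated lung cells, which were not analysed here, and only the column titles say that these are fibroblasts. Il1rl1 stood at 85.2, 79.2, 73.1 and 69.2 normalized counts in the KO M, KO FL and 2 KO NULL libraries, against 70.7, 33.9, 18.3 and 106 in the WT libraries in the same order. A total per gene cannot show a missing exon, so the genotype is taken from the labels.

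Markers of other cells bear on where the RNA came from. All 8 fibroblast markers checked were above 10 normalized counts in every library, and so were all 8 macrophage and monocyte markers, whose summed level was 18513 to 43258. The 5 lymphocyte markers summed to 8.63 to 28.9, of which Ms4a1 made up 6.48 to 25.9, and Cd3e was listed at 0 throughout. In such bulk RNA, more cells of a type and more RNA per cell cannot be told apart.

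The NR4A genes separated the genotypes in every library. Nr4a1 stood at 2003, 2125, 1667 and 1780 normalized counts in the KO M, KO FL and 2 KO NULL libraries, against 442, 476, 554 and 509 in the WT M, WT FL and 2 WT NULL libraries. Nr4a2 stood at 304, 456, 313 and 344 in the same KO libraries, against 177, 203, 118 and 107 in WT. Nr4a3 stood at 271, 271, 244 and 208 in KO, against 95.1, 97.5, 93.2 and 96.3 in WT. For each of the 3 genes the lowest KO library lay above the highest WT library, with the widest separation for Nr4a1. None of the other 7 genes had all 4 KO libraries above all 4 WT libraries, and 11.5% of the 15527 genes tested did. None of the 10 had all KO libraries below all WT libraries, as 9% of the genes did.

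**Figure D1:**
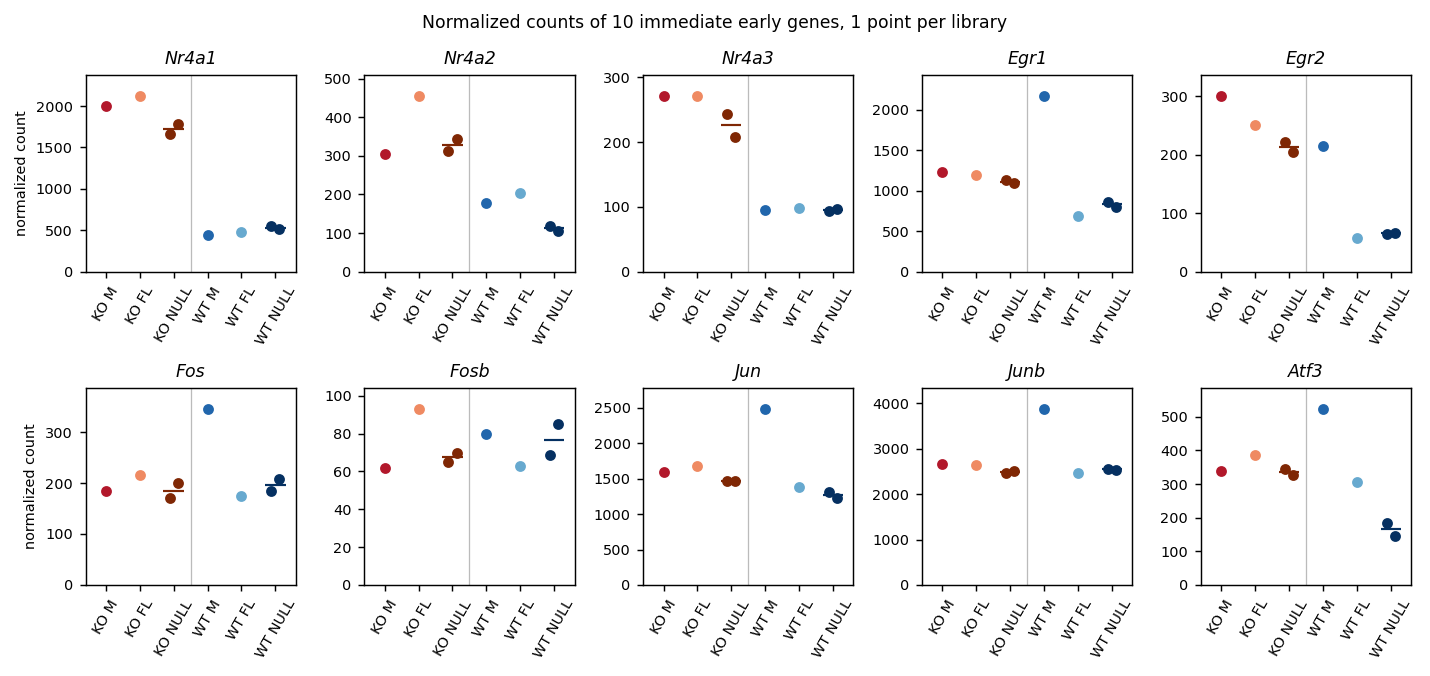
Normalized counts (vertical axes, starting at 0) of the 10 genes in the 8 libraries, 1 point per library, with groups along the horizontal axes and a line at the mean of each NULL pair. The KO libraries lie above all WT libraries for Nr4a1, Nr4a2 and Nr4a3, and the WT M library is the highest of the 8 for Egr1, Fos, Jun, Junb and Atf3.

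With the NULL virus alone, the mean of Nr4a1 was 1724 ± 79.5 normalized counts in KO and 532 ± 31.8 in WT (SD, n = 2 each), a 3.24-fold rise (log2 1.70, SE 0.07, limma adjusted p = 1.26e-05). Nr4a2 rose 2.91-fold, with 329 ± 21.6 in KO and 112 ± 8.26 in WT (log2 1.54, SE 0.12, adjusted p = 0.000158). Nr4a3 rose 2.36-fold, with 226 ± 25.1 in KO and 94.8 ± 2.16 in WT (log2 1.24, SE 0.14, adjusted p = 0.000846). The p-values use a fit of log2(normalized count + 1) over 6 groups and Benjamini-Hochberg adjustment over all genes, and they measure only the spread between these libraries, which may be technical. Each NR4A call also held in all 16 alternative fits tried.

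All NR4A genes carried a dense set of CRE cores before their transcript starts. The CRE core TGACG, read as CGTCA on the other strand, is the first part of the CREB element TGACGTCA. The sequences below are RefSeq's 250 bases before the start (GRCm38.p6), printed because these genes moved together between the genotypes. They lie at chr15:101266596-101266845 on the plus strand for Nr4a1, at chr2:57124004-57124253 on the minus strand for Nr4a2 and at chr4:48045055-48045304 on the plus strand for Nr4a3. Capitals mark the cores on either strand.
Nr4a1: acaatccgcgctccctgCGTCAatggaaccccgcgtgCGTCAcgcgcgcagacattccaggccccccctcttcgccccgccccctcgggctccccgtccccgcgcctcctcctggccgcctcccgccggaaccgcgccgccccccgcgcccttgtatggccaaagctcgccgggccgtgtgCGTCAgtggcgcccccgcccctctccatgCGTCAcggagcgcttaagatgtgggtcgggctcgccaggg
Nr4a2: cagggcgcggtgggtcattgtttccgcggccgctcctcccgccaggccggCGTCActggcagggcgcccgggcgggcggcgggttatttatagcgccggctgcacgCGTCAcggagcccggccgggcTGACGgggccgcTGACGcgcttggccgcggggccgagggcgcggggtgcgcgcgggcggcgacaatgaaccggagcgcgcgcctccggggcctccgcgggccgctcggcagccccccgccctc
Nr4a3: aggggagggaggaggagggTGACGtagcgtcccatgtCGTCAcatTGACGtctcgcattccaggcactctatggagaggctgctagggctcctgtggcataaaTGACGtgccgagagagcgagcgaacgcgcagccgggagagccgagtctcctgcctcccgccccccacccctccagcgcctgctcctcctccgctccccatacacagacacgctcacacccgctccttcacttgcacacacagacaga
Each held 4 cores. Over all 32851 RefSeq start windows of 300 bases (250 before the start and 50 after it), 20.8% held at least 1 and 0.231% held at least 4. A match is a description of letters and shows no binding.

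The position of the cores differed among the NR4A genes. In Nr4a1 a pair lay near the start (first bases at -69 and -40), with a site for EGR factors, GCGNGGGCG on either strand, between them at -60. Nr4a2 also held an EGR site, at -74, and its cores lay from -200 to -107. Nr4a3 held no EGR site, and all its cores lay at or before -143. EGR sites were in 5.55% of all windows. No member's window held the full CRE, which 1.79% of windows did, and none held the NR4A monomer site AAAGGTCA, which 1.51% did.

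With IL-33 the differences of the NR4A genes from NULL were uneven, and most did not pass. Each was smaller than that gene's difference between KO NULL and WT NULL. In WT, Nr4a2 rose with both isoforms: to 177 with M (log2 0.65, SE 0.14, adjusted p = 0.0091) and to 203 with FL (log2 0.85, SE 0.14, adjusted p = 0.0187), against 118 and 107 with NULL. Nr4a1 fell to 442 with M, against 554 and 509 with NULL (log2 -0.26, SE 0.09, adjusted p = 0.0434), which missed the threshold in 6 of 14 alternative fits, including those without KO NULL 1 (adjusted p = 0.0765), KO NULL 2 (0.0767) or WT NULL 1 (0.110). Nr4a3 differed from NULL by a log2 of 0.00 (SE 0.17) with M and 0.04 (SE 0.17) with FL in WT. In KO none of the NR4A genes passed with either isoform, and the values ran from -0.11 (SE 0.14, Nr4a2 with M) to 0.47 (SE 0.14, Nr4a2 with FL). The FL call for Nr4a2 was lost without KO NULL 1 (adjusted p = 0.0625), KO NULL 2 (0.0608) or WT NULL 2 (0.0608).

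Egr2 was higher both in KO NULL and in WT M than in WT NULL, as were Atf3, Nr4a2, Egr1 and Jun. Egr2, which drives peripheral myelination and restrains T cell activation, stood at 301, 251, 222 and 204 normalized counts in the KO M, KO FL and 2 KO NULL libraries. It stood at 215, 57.7, 64.2 and 66.9 in the WT M, WT FL and 2 WT NULL libraries. The WT M library thus lay within the KO range and the other WT libraries far below it. Egr2 rose 3.21-fold in KO NULL over WT NULL (log2 1.68, SE 0.13, adjusted p = 0.00018) and 3.25-fold in WT M over WT NULL (log2 1.70, SE 0.16, adjusted p = 0.000211). These comparisons share the WT NULL libraries. With M and FL pooled in a fit of 4 groups, where the spread includes the gap between the isoforms, the KO NULL difference did not pass (adjusted p = 0.143).

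Egr1, the early growth response factor that growth factors and mechanical strain induce, was highest with M in WT. It stood at 1231, 1196, 1134 and 1091 normalized counts in KO M, KO FL and KO NULL, against 2173, 685, 861 and 804 in WT M, WT FL and WT NULL. The KO libraries lay close together and above the WT NULL pair, and the WT M library lay well above both. The rise with M in WT was 2.61-fold (log2 1.38, SE 0.08, adjusted p = 1.94e-05). The rise in KO NULL over WT NULL was 1.34-fold (log2 0.42, SE 0.06, adjusted p = 0.00329), with adjusted p = 0.639 in the fit of 4 groups and 0.0623 with no filter on low values.

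Of the AP-1 subunits, Jun, Junb and Fos rose with M in WT, and Fosb did not pass. Jun stood at 1589, 1678, 1470 and 1461 normalized counts in KO M, KO FL and KO NULL, against 2483, 1384, 1305 and 1233 in WT M, WT FL and WT NULL. Junb stood at 2671, 2633, 2454 and 2506 in the KO libraries, against 3873, 2465, 2553 and 2533 in WT. Fos stood at 185, 216, 171 and 199 in KO, against 345, 174, 184 and 208 in WT. In each, the WT M library was the highest of the 8, and the other 7 lay within a narrow band. Jun encodes the AP-1 subunit that transactivates as a homodimer or with Fos, and Junb a weaker activator that can oppose it. With M in WT, Jun rose 1.96-fold (log2 0.97, SE 0.07, adjusted p = 4.99e-05), Junb 1.52-fold (log2 0.61, SE 0.05, adjusted p = 0.000155) and Fos 1.76-fold (log2 0.82, SE 0.16, adjusted p = 0.00611).

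Fosb was the member that passed in no comparison. It stood at 61.9, 93.0, 65.1 and 69.8 normalized counts in KO M, KO FL and KO NULL, against 79.6, 63.1, 68.7 and 84.9 in WT M, WT FL and WT NULL, so the groups overlapped. Its log2 difference with M in WT was 0.06 (SE 0.23, adjusted p = 0.853). In KO NULL over WT NULL, Fos, Fosb and Junb did not pass, with log2 values of -0.08 (SE 0.13), -0.18 (SE 0.19) and -0.04 (SE 0.04). Jun was 1.16-fold higher there (log2 0.21, SE 0.06, adjusted p = 0.0274), a call lost in 6 of 16 alternative fits, among them those without KO NULL 1 (adjusted p = 0.146), KO NULL 2 (0.127) or WT NULL 2 (0.0840).

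Atf3, a bZIP repressor induced by stress and by Toll-like receptor signals, was lowest in the WT NULL pair. It stood at 338, 387, 345 and 329 normalized counts in KO M, KO FL and KO NULL, against 524, 306, 184 and 147 in WT M, WT FL and WT NULL. The WT FL library lay just below the KO range and the WT M library above it. Atf3 rose 3.17-fold with M in WT (log2 1.66, SE 0.16, adjusted p = 0.000211), 1.85-fold with FL in WT (log2 0.89, SE 0.16, adjusted p = 0.0218) and 2.04-fold in KO NULL over WT NULL (log2 1.03, SE 0.13, adjusted p = 0.00141). The FL call was lost without KO NULL 1 (adjusted p = 0.0723) or KO NULL 2 (0.0699). In the fit of 4 groups the KO NULL difference had adjusted p = 0.0809.

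Of the 10 genes, 7 rose with M in WT, 1 fell (Nr4a1) and 2 did not pass (Nr4a3, Fosb), where 49.3% of all genes tested passed, 22.5% higher and 26.8% lower. The fit that kept low genes too called 5, all higher, where 20.0% of all genes passed. The WT M library was the highest of the 8 for 5 of the genes and the lowest for Nr4a1, as it was for 27.3% and 30.3% of all genes. Having no repeat, it was given the spread of the NULL pairs. The same library also differed in its cell type markers. The macrophage and monocyte sum was 43258 normalized counts in WT M, against 18513 and 19364 for the 2 WT NULL libraries, and all 8 markers were higher. The mesothelial sum was 4429 against 1259 and 1261, with all 6 markers higher, and the fibroblast sum was 468892 against 773903 and 754536. The smooth muscle and pericyte sum was 169490 against 319861 and 313664, and the alveolar type 2 sum was 225 against 1382 and 1051. The part of these shifts in the rise of the immediate early genes was not tested.

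**Figure D2:**
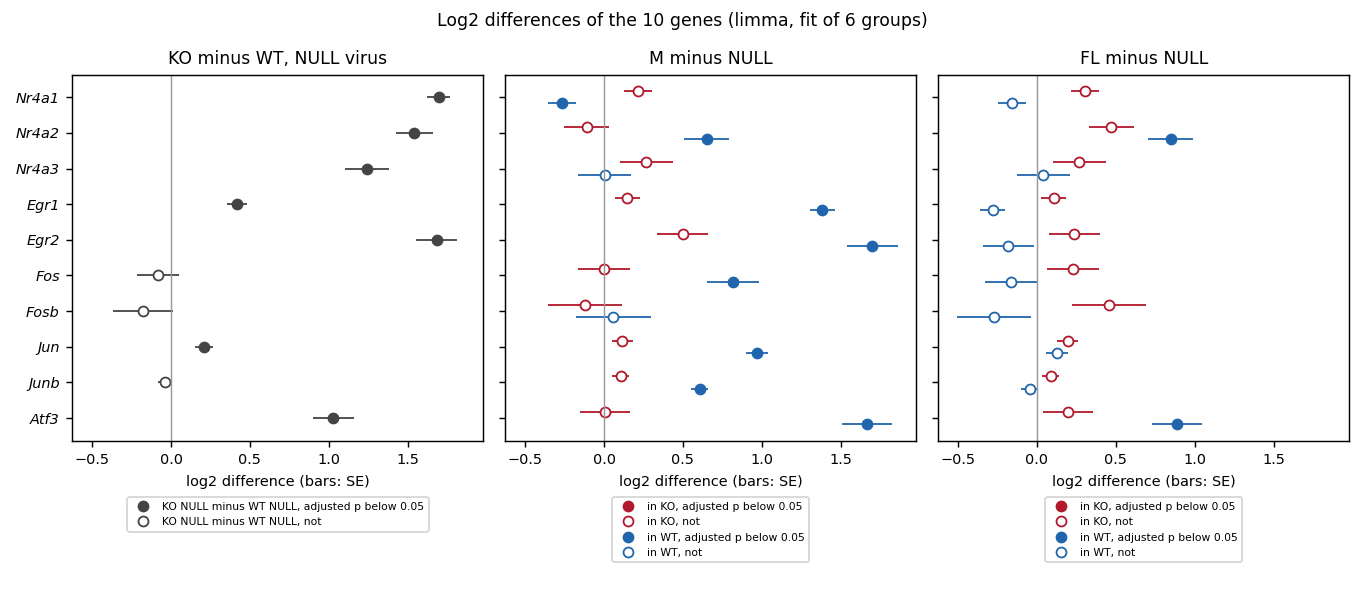
Log2 differences (horizontal axes, bars are SE) of the 10 genes for KO NULL minus WT NULL, M minus NULL and FL minus NULL, with filled points where the limma adjusted p is below 0.05. The points for M and FL in KO are all open, and 8 of the 10 points for M in WT are filled.

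In KO, 0 of the 10 genes passed with M and 0 with FL (limma), where 0.0322% (0.0258% higher, 0.00644% lower) and 0.238% (0.0708% higher, 0.167% lower) of all genes did. At an unadjusted p below 0.05 there were 2 and 3 members, all higher, but the share of all genes at that p was not counted. The largest value was a log2 of 0.50 for Egr2 with M (SE 0.16, adjusted p = 0.528), followed by 0.47 for Nr4a2 (SE 0.14, adjusted p = 0.268) and 0.46 for Fosb with FL (SE 0.23, adjusted p = 0.454). Vector transcript was present in both: Il33 stood at 81110 normalized counts with M and 1080220 with FL in KO, against 216 and 214 with NULL. Marker sums also differed in KO. The alveolar type 2 sum was 261 with M and 260 with FL, against 1.36 and 1.09 with NULL. The mesothelial sum was lower, at 414 and 497 against 625 and 627. The part of these markers was not tested.

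For 33.4% of all genes the M effect differed by genotype, with KO effect minus WT effect positive in 18.8% and negative in 14.6%. Among the 10 genes the M effect differed for 8. It was smaller in KO for Atf3 (KO effect minus WT effect -1.66 on the log2 scale, SE 0.22, adjusted p = 0.00192), Egr1 (-1.24, SE 0.11, adjusted p = 0.000313), Egr2 (-1.20, SE 0.23, adjusted p = 0.00792), Jun (-0.85, SE 0.10, adjusted p = 0.000841), Fos (-0.82, SE 0.23, adjusted p = 0.0351), Nr4a2 (-0.76, SE 0.20, adjusted p = 0.0285) and Junb (-0.50, SE 0.08, adjusted p = 0.00327). For Nr4a1 the sign was opposite (0.48, SE 0.12, adjusted p = 0.0255), since it fell with M in WT and stood at 2003 with M against 1667 and 1780 with NULL in KO. The Il33 level with M was 81110 in KO and 248956 in WT, and its part in the difference was not tested. Marker sums also moved differently with M. The macrophage and monocyte sum was 21019 in KO M, against 19518 and 19377 in KO NULL, and 43258 in WT M, against 18513 and 19364 in WT NULL. The mesothelial sum was 414 in KO M, against 625 and 627, and 4429 in WT M, against 1259 and 1261. The part of these markers in the difference of the 10 genes was not tested either. Without KO NULL 2 the count was 5, with Nr4a1, Nr4a2 and Fos lost (adjusted p = 0.0562, 0.0921 and 0.0974), and it was 4 when low genes were kept. Nr4a1 was also lost without KO NULL 1 (adjusted p = 0.0929), Nr4a2 without KO NULL 1 (0.0612) or WT NULL 2 (0.0580), and Fos without WT NULL 1 (0.0785).

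With FL, 2 of the 10 genes rose in WT (Atf3 and Nr4a2), where 7.39% of all genes passed, 3.5% higher and 3.9% lower. The FL effect differed between the genotypes for 0 of 10 members (limma), and for 3 at an unadjusted p below 0.05. The share of all genes at that unadjusted p was not counted. By adjusted p, 2.44% of all genes differed, with KO effect minus WT effect positive in 1.09% and negative in 1.35%. As KO effect minus WT effect, the values were -0.69 for Atf3 (SE 0.22, adjusted p = 0.193) and -0.38 for Nr4a2 (SE 0.20, adjusted p = 0.411). The rises with FL in WT are therefore not shown to be absent in KO. The Il33 level with FL was 1080220 in KO and 593840 in WT, and its part was not tested. The smooth muscle and pericyte sum was 234711 in WT FL, against 319861 and 313664 in WT NULL, with all 5 markers lower, and the alveolar type 2 sum was 325 against 1382 and 1051, with 0 of 4 markers tested passing (limma) and 4 lower at an unadjusted p below 0.05. The macrophage and monocyte sum was 19169 in WT FL, against 18513 and 19364, with 1 of 8 markers higher. The fibroblast sum was 906875 in WT FL, against 773903 and 754536 in WT NULL, with 3 of 8 markers higher and 1 lower. The part of these markers in the rises was not tested. The count of 2 became 0 on leaving out KO NULL 1 or KO NULL 2, and 1 on leaving out WT NULL 2.

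With M and FL pooled as IL-33 in the fit of 4 groups, 0 of the 10 genes passed in WT and 0 in KO (limma), where 0.264% (0.18% higher, 0.0837% lower) and 0.0193% of all genes did, those in KO all higher. At an unadjusted p below 0.05 there were 2 in WT (Atf3 and Nr4a2) and 1 in KO (Nr4a1). These 2 counts also have no share of all genes beside them. For Atf3 the pooled IL-33 effect in WT was a log2 of 1.28 (SE 0.26, adjusted p = 0.104), and for Egr1, where M and FL lay on opposite sides of NULL, it was 0.55 (SE 0.46, adjusted p = 0.473). With the spread from the NULL pairs alone (6 groups), 6 genes passed in WT, where 37.4% of all genes did. Without WT FL the comparison rests on M alone, with a log2 of 1.66 for Atf3 and 1.38 for Egr1. Without WT M it rests on FL alone, with 0.89 and -0.28.

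In KO NULL over WT NULL, 7 of the 10 genes rose and 0 fell, where 32.8% of all genes passed, 16.2% higher and 16.6% lower. The count was 3, the NR4A genes, in the fit of 4 groups, where 4.28% of all genes passed. It was 4 with no filter on low values, where 7.04% of all genes did. Marker sums that differed between these pairs included the mesothelial (625 and 627 in KO NULL, 1259 and 1261 in WT NULL) and the endothelial (199 and 188 against 439 and 428). The smooth muscle and pericyte sum, most of it Acta2, was 411226 and 415103 against 319861 and 313664, with 4 markers higher. Its marker Rgs5 went the other way, at 129 and 119 in KO NULL against 3709 and 3820 in WT NULL. The fibroblast sum was 716548 and 716489 against 773903 and 754536, with 4 of 8 markers higher and 4 lower. Alveolar type 2 markers summed to 1.36 and 1.09 in KO NULL, against 1382 and 1051 in WT NULL. They summed to 261 in KO M, 260 in KO FL, 225 in WT M and 325 in WT FL, so the KO IL-33 libraries did not share the low KO NULL sum. The macrophage and monocyte sum, most of it Lyz2, was 19518 and 19377 in KO NULL, against 18513 and 19364 in WT NULL. Of its 8 markers, 4 rose (Ptprc, Cd68, Adgre1 and Mrc1, by log2 0.68, 0.61, 0.47 and 1.03) and Csf1r fell (log2 -0.36). The part of these markers in the rises was not tested.

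Averaged over NULL and IL-33 in the fit of 4 groups, 4 of the 10 genes rose in KO (Nr4a1, Nr4a2, Nr4a3 and Egr2), where 11.9% of all genes passed, 6.86% higher and 5.08% lower. The rise was 3.81-fold for Nr4a1 (log2 1.93, SE 0.07, adjusted p = 5.25e-05), 2.39-fold for Nr4a2 (log2 1.26, SE 0.15, adjusted p = 0.004), 2.57-fold for Nr4a3 (log2 1.36, SE 0.11, adjusted p = 0.000877) and 2.80-fold for Egr2 (log2 1.49, SE 0.38, adjusted p = 0.0497). The Egr2 call was lost on leaving out any 1 of the 4 KO or 2 WT NULL libraries (adjusted p = 0.146 to 0.167). Without WT M, which leaves FL alone as IL-33 in WT, the log2 values of Atf3, Jun and Egr1 were 0.63, 0.22 and 0.62. Without WT FL, which leaves M alone, Fos (-0.44), Jun (-0.20), Junb (-0.29) and Egr1 (-0.21) had negative values. The direction for Jun and Egr1 thus turned on which WT library was left out.

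Egr2 and Fos are shown as promoters with other arrangements of the elements that act on immediate early genes. Capitals mark CRE cores and, in Egr2, also the CArG box that serum response factor binds. The Egr2 sequence is from chr10:67537619-67537868 on the plus strand, before 1 of its 5 RefSeq starts. It was chosen after the search because it holds both elements, but windows of other Egr2 starts held both too. The Fos sequence is from chr12:85473640-85473889 on the plus strand (both GRCm38.p6).
Egr2: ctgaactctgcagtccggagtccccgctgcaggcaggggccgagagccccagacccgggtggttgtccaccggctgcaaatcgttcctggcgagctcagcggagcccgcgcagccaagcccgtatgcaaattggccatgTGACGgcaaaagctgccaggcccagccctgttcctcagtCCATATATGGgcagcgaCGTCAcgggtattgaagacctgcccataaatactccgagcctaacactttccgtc
Fos: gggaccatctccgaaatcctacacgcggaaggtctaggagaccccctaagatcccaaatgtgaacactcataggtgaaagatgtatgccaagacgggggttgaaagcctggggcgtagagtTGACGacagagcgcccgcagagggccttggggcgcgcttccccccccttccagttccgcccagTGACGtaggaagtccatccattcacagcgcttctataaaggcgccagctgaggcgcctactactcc
In Egr2 the CArG box (-72 to -63) lay between cores at -111 and -55. Fos held cores at -129 and -66 and a TATA box (TATAAA, on either strand) at -33. The CArG box was in the windows of 1 of the 9 genes with a RefSeq window, against 1.63% of all windows, and the core in 8 of 9, Jun being the exception. The letters TATAAA were in 3 of 9 against 13.6%, the EGR site in 3 of 9 against 5.55%, the NF-kB site in 4 of 9 (Nr4a1, Fos, Fosb and Egr2) against 8.46%, and the AP-1 site TGANTCA in 0 of 9 against 7.81%. The TATAAA matches had first bases at -33 in Fos, -164 in Nr4a2 (minus strand) and 1 in Junb. A gene was counted if any of its windows held the site, and Egr2 had 5 windows, while the shares are per window. A search of these windows says nothing of elements farther upstream.

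**Figure D3:**
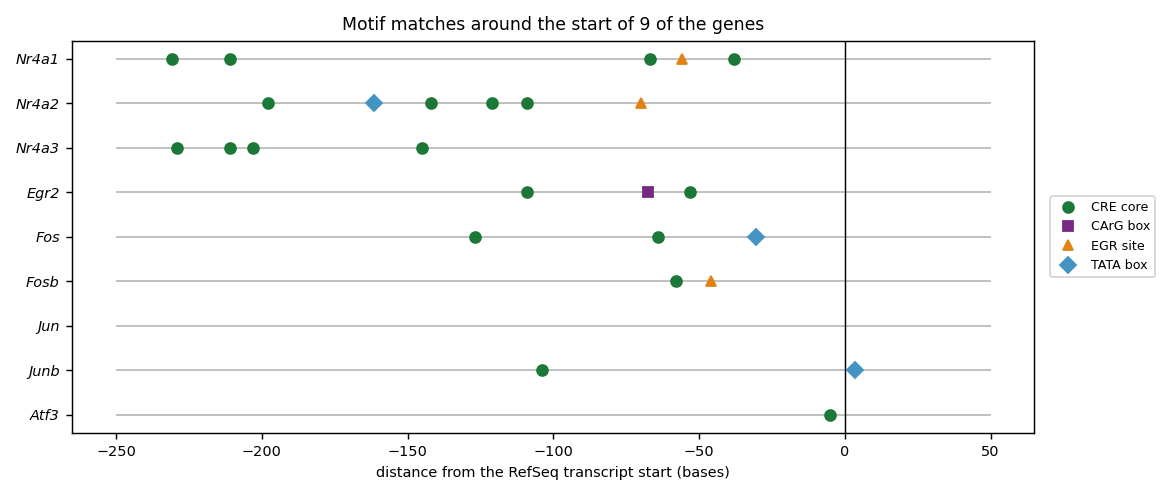
Matches to the CRE core, CArG box, EGR site and TATA box around the RefSeq transcript start of 9 of the genes (horizontal axis in bases from the start, 1 line per gene, for Egr2 the window of the printed sequence). Nr4a1, Nr4a2 and Nr4a3 each hold 4 CRE cores, and the other genes hold at most 2.

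Per kilobase of exon, Junb was the most abundant of the 10 transcripts in both NULL pairs, at 1078 normalized counts per kb in KO NULL and 1105 in WT NULL. In KO NULL, Nr4a1 (491) stood next, just above Jun (460) in both libraries, followed by Egr1 (248) and Atf3 (156). Nr4a2 (81.0) and Fos (78.7) overlapped there, and Egr2 (62.6), Nr4a3 (37.7) and Fosb (10.8) were the lowest. In WT NULL, Jun (398), Egr1 (186) and Nr4a1 (152) came after Junb, then Fos (83.4) and Atf3 (76.9), whose libraries overlapped, then Nr4a2 (27.7), Egr2 (19.3), Nr4a3 (15.8) and Fosb (12.3). Nr4a1 thus ranked 2 of 10 in KO NULL and 4 of 10 in WT NULL. The lengths are the union of annotated exons, so isoform use could shift these levels.

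The genes whose profile over the 8 libraries lay closest to that of Nr4a1 were Btc, Tmem45a2, Gm42860, S1pr3 and Sema7a, with root mean square differences of 0.15 to 0.20 on the centred log2 scale among 12559 genes. Btc, which encodes the EGF family ligand betacellulin, stood at 435, 388, 398 and 430 normalized counts in KO M, KO FL and KO NULL, against 84.6, 118, 125 and 113 in WT M, WT FL and WT NULL. Closest to Egr1 were Zc3h12a, Etv4, Edn1, Dctd and Fgf13, at 0.10 to 0.13. Zc3h12a, which encodes the mRNA-degrading enzyme Regnase-1, stood at 437, 397, 418 and 436 in the KO libraries, against 712, 272, 323 and 278 in the WT libraries. Likeness was measured on the values compared above and supports no further statement.

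Genes that share inputs with the 10 were counted as lists, to be read against the shares of all genes tested: 16.2% higher and 16.6% lower in KO NULL, and 22.5% higher and 26.8% lower with M in WT. Of 35 other immediate early genes tested, 18 rose and 5 fell in KO NULL over WT NULL (median log2 0.23, against -0.00 over all genes), and 18 rose and 6 fell with M in WT (median 0.44, against -0.02). In KO NULL, Errfi1, a feedback inhibitor of the EGF receptor, rose 2.55-fold (adjusted p = 6.33e-06), Sgk1, a kinase induced by serum and glucocorticoid, 2.66-fold (adjusted p = 1.05e-05), Ptgs2, the prostaglandin synthase COX-2, 2.18-fold (adjusted p = 4.83e-06) and Phlda1 2.27-fold (adjusted p = 2.2e-05). With M in WT, Ptgs2 rose 3.41-fold (adjusted p = 6.39e-07) and Sgk1 3.79-fold (adjusted p = 2.82e-06), while Ccn2, the matricellular protein CTGF, fell by 0.90 (adjusted p = 2.18e-06) and Gadd45g fell by 1.13 (adjusted p = 3.81e-06) on the log2 scale. Ptgs2 stood at 11989, 12894, 11701 and 11378 normalized counts in KO M, KO FL and KO NULL, against 18051, 4830, 5291 and 5305 in WT M, WT FL and WT NULL, so its KO level lay between WT M and WT NULL.

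Feedback genes of the MAP kinase pathways, ERK among them, are induced by pathway activity. The list holds Dusp, Spry and Spred genes, including Dusp1, Dusp8 and Dusp10, and is not specific to ERK. Of 13 tested, 6 rose and 1 fell in KO NULL (all genes 16.2% and 16.6%), with a median log2 of 0.10, and 8 rose and 4 fell with M in WT (all genes 22.5% and 26.8%), with a median of 0.83. Dusp5, a nuclear ERK phosphatase, rose 2.10-fold in KO NULL (adjusted p = 0.000214) and 3.11-fold with M in WT (adjusted p = 3.68e-05). Dusp4, also a nuclear phosphatase, rose 1.74-fold (adjusted p = 7.78e-05) and 2.04-fold (adjusted p = 2.98e-05), and Dusp6, the cytoplasmic ERK phosphatase, rose 3.50-fold with M in WT (adjusted p = 1.96e-05). Spry2 and Spred3 rose in KO NULL (log2 0.79 and 0.82). The receptor tyrosine kinase inhibitor Spry1 went the other way with M in WT, with 922 normalized counts against 3564 and 3786 with NULL (log2 -1.99, SE 0.06, adjusted p = 1.3e-06).

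Of 8 other AP-1 and Maf genes tested, 3 rose and 2 fell in KO NULL (all genes 16.2% and 16.6%), with a median log2 of -0.06, and 1 rose and 5 fell with M in WT (all genes 22.5% and 26.8%), with a median of -0.32. Fosl1 (Fra-1) was the one that rose in both, 2.41-fold in KO NULL (adjusted p = 0.00585) and 5.54-fold with M in WT (adjusted p = 0.000435), and it stood at 368, 418, 364 and 274 in KO M, KO FL and KO NULL, against 727, 169, 163 and 105 in WT M, WT FL and WT NULL. Maff rose and Jdp2, a repressor of AP-1, and Jund fell in KO NULL (log2 0.49, -0.61 and -0.39), while Fosl2, Maf and Mafk fell with M in WT (log2 -0.34, -0.60 and -0.33). Of 3 other Egr and Nab genes, Nab2, a corepressor of EGR factors, rose in KO NULL (log2 0.44, adjusted p = 0.00117), and Nab1 and Nab2 fell with M in WT (log2 -0.52 and -0.43).

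Of 15 factors that act on immediate early promoters, 3 rose and 3 fell in KO NULL, near the shares of all genes (16.2% and 16.6%), among them Srf, which encodes serum response factor, 1.38-fold higher (adjusted p = 0.00143), Creb3 and Atf1 (log2 0.27 and 0.44), and Crtc3, a CREB coactivator, lower (log2 -0.37). With M in WT, 1 rose and 6 fell (all genes 22.5% and 26.8%), among them Mef2c, Elk1, a partner of serum response factor, Crtc3 and Mef2a (log2 -1.10, -0.95, -0.94 and -0.34). Of 12 genes of the ATF4 stress response, 2 rose and 4 fell in KO NULL (median log2 -0.06) and 6 rose and 3 fell with M in WT (median 0.25), beside the same shares of all genes. Among these, Atf5, Ddit4 and Trib3 fell and Vldlr rose in KO NULL (log2 -0.42, -0.41, -0.30 and 0.28), and Ppp1r15a, Sesn2 and Ddit4 rose and Atf5 fell with M in WT (log2 0.85, 0.59, 0.54 and -0.78).

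Heat shock genes, which handling and proteotoxic stress induce, rose in KO NULL for all 7 tested, where 16.2% of all genes did (median log2 0.31, against -0.00 over all genes). The changes there were 1.49-fold for Hspa1b (adjusted p = 0.000244), 1.25-fold for Hspe1, 1.23-fold for Hsph1 and 1.26-fold for Hsp90aa1. With M in WT, where 22.5% of all genes were higher and 26.8% lower, 4 rose, among them Hsp90aa1, Hspe1 and Hspd1 (log2 0.65, 0.59 and 0.58), and 2 fell, Hspa1b by a log2 of -1.04 and Hspa1a by -0.37. Hspa1a stood at 2081 with FL in KO against 498 and 516 with NULL, and at 881 with FL in WT against 403 and 415. Reads of Hspa1a and Hspa1b, near-identical copies, cannot be assigned with certainty. The part of the heat shock response in the levels of the 10 genes was not tested.

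**Figure D4:**
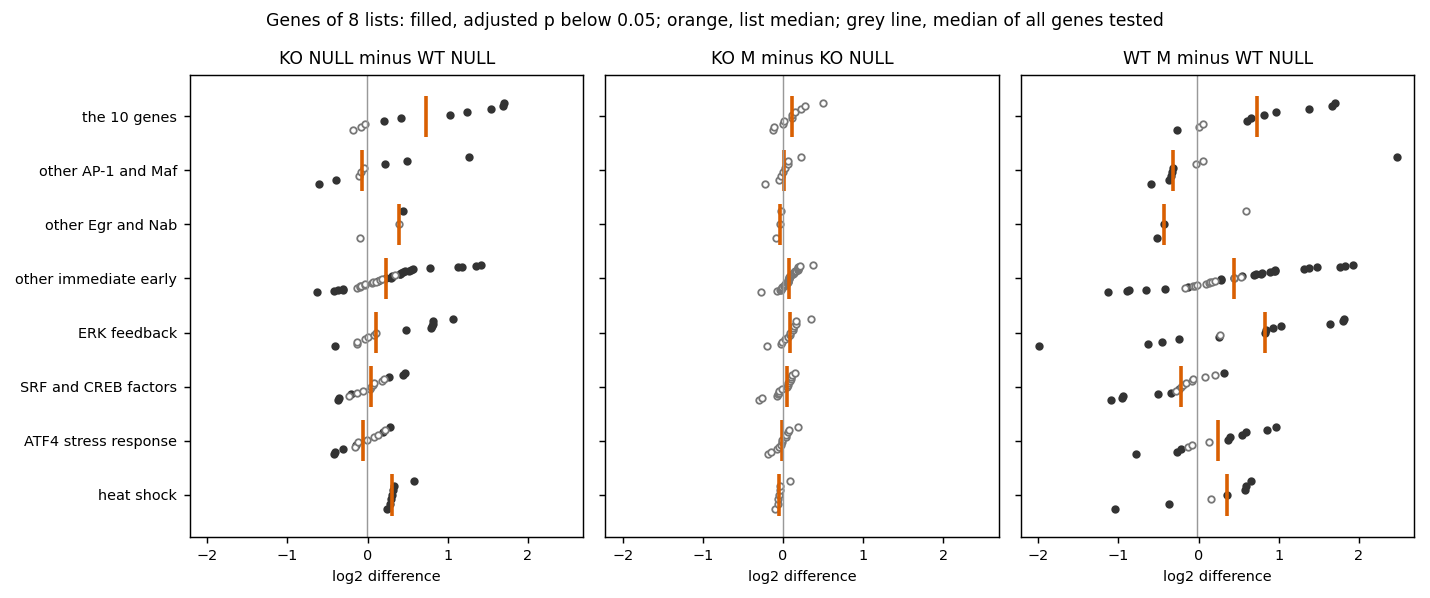
Log2 differences (horizontal axes, on 1 shared scale) of the genes of 8 lists for KO NULL minus WT NULL, KO M minus KO NULL and WT M minus WT NULL, 1 point per gene, filled where the limma adjusted p is below 0.05. The list labelled ERK feedback holds feedback genes of MAP kinase pathways and is not specific to ERK. The list medians (orange) lie close to 0 with M in KO, and the medians of the 10 genes are 0.72 in KO NULL and 0.73 with M in WT.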

How the data were processed

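RNA sequencing of 8 libraries titled as lung fibroblasts was used. The deposited values are normalized counts per gene (unit: signal), for which the submitters' processing notes name Salmon, DESeq2 and GRCm38.p6; versions are not given in the sources used here. By the most common low value, a single read was worth 0.706 to 1.18 normalized counts, which gives 2.37e+07 to 3.98e+07 reads per library. Only 50.4% to 70.9% of values up to 12 were whole multiples within 0.02 steps, so counts were not recovered.

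Symbols came from a table of GENCODE names (53444 of 54331 genes), exon lengths and positions from GENCODE M21 (GRCm38) and promoter sequences from RefSeq (GRCm38.p6); 9 of the 10 genes had a window. The 15527 genes averaging 10 or more entered two-sided limma-trend tests on log2(value + 1), run in limma 3.58.1 under R 4.3.3, with Benjamini-Hochberg adjustment over all genes and a threshold of 0.05. The fit of 6 groups had 2 residual and 4.78 prior degrees of freedom, the fit of 4 groups 4 and 2.82. The code was tested on simulated data. The median squared difference between the NULL libraries of a genotype exceeded that of counting noise (2.38 times in KO, 3.72 times in WT). Named genes were the 10 members, Il33, Il1rl1, up to 4 genes per list with the smallest p in a comparison, and the 5 closest profiles to Nr4a1 and Egr1 (mean of at least 50); the per-library values of Hspa1a, and further genes named in a list, were added after their values were seen. Members and lists were chosen with earlier results of these data known. Alternatives were another added value, filter, normalization or grouping, a replicate block, and the removal of single libraries. Tables and figures used Python 3.11.15, pandas 2.3.3, numpy 2.4.6 and matplotlib 3.10.9.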

Additional observations from a re-analysis of the deposited data

Results flagged for a closer look

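In the WT libraries, the M library stood far from the other 3 for Junb, Jun, Egr1 and Egr2: its gap to the next library was 0.938, 0.879, 0.882 and 0.941 of the range of the 4 libraries, above Dixon's 95% critical value for 4 samples. The 4 libraries differ in their virus, and of 20 sets examined (10 genes in each genotype) chance would place about 1 in 20 past that value. The M effect also differed between the genotypes (KO effect minus WT effect, log2) for Atf3 (-1.66), Egr1 (-1.24), Egr2 (-1.2), Jun (-0.852), Fos (-0.815), Nr4a2 (-0.761), Junb (-0.5) and Nr4a1 (0.482). The WT M library enters all of these values and has no repeat.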

How the results depend on the processing

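Over 100 combinations of gene and comparison and 1460 alternative values, the sign changed with the alternative or the original value past the threshold in 2: without WT FL, the averaged KO minus WT value was -0.20 for Jun and -0.21 for Egr1, and without WT M it was 0.22 and 0.62. In 28 more the sign changed with neither value past the threshold. Counts of members called changed as follows, and the share of all genes called also changed with the setting. With no filter on low values they were 5 for M in WT (20.0% of all genes) and 0 for FL in WT (4.29%). They were 4 for the M effect in KO minus WT (14.9%) and 4 for KO NULL over WT NULL (7.04%). With the other grouping they were 3 for KO NULL over WT NULL (4.28% of all genes) and 7 for KO over WT averaged (40.8%). For IL-33 in WT the count was then 6 (37.4%). Leaving out 1 library gave 0 to 2 for FL in WT, 5 to 8 for the M effect in KO minus WT, 3 to 8 for KO over WT averaged and 0 to 8 for IL-33 in WT. With the replicate block (the number of the NULL libraries), the count for FL in WT was 0, and no other count moved by over 1.5 times; single calls lost under it are Nr4a1 with M in WT, Nr4a1 and Nr4a2 in the M difference, Jun in KO NULL and Egr2 averaged. The numbers are not shown to pair the libraries: the NULL 2 minus NULL 1 differences of KO and WT had a correlation of 0.0231 over genes. Apart from the counts, 51 single gene calls were lost and 23 gained. The cause was not tested. Each IL-33 library is alone in its group, so its counting error and its culture cannot be separated.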
